A study of Mus musculus with 9 samples.

Results

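The Schlafen genes are a family that mammals carry as a cluster, and 7 of them (Slfn1, Slfn2, Slfn3, Slfn4, Slfn5, Slfn8 and Slfn9) were followed here in mouse ear skin. They were found by name among the 25124 genes of the deposited table, and the family was chosen by the measured rise of Slfn1 between the groups of this study. The change of Slfn1 is therefore given as a description with no test, and since the same comparison drew attention to the family, the changes of the other 6 support nothing about the family as a whole. All 7 genes were found, each in 1 row. The samples were 9 whole ear skin libraries of C57BL/6 mice that had Staphylococcus epidermidis strain LM087, a skin commensal, put on the skin every other day, and the skin was taken on day 8. In 4 libraries the mice were also given anti-CTLA-4, an immune checkpoint inhibitor antibody against a receptor that restrains T cells, and in 5 they had the bacterium alone. All 9 libraries carried the bacterium, and skin without it or with the antibody alone was not analysed here. Age and sex are not given in these labels. Nor do they say whether replicates are separate animals, so the p-values rest on a spread between libraries that could be technical.

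Schlafen proteins came to attention in mouse thymus and T cells, where they were tied to the control of growth and of the resting state. Several are induced by type I interferon, and they differ in size. Slfn1 and Slfn2 encode the short forms, Slfn3 and Slfn4 the intermediate forms, and Slfn5, Slfn8 and Slfn9 the long forms, which carry an added helicase-like part. Slfn1 slows the growth of thymocytes when it is expressed there in excess. Slfn2 is needed for T cells and monocytes to stay at rest and survive activation. Slfn4 is a gene of macrophages and other myeloid cells, induced there by interferon and by bacterial products.

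The sequences before the members' start sites are shown because the 4 genes with short and intermediate forms shared a run of bases there and the 3 with long forms shared another motif. The stretches shown come from RefSeq promoter windows on GRCm38.p6, which has the coordinates of mm10, the build of the files. The windows reach 250 bases before and 50 bases after the start that the deposited table lists, positions count from that start, and all 7 members matched a window. The first 4 stretches, 100 bases just before the start and read 5′ to 3′ on the gene's strand, are those of the genes with short and intermediate forms. Capitals mark a run of 9 bases that all 4 share.
Slfn1, chr11:83116720-83116819, plus strand: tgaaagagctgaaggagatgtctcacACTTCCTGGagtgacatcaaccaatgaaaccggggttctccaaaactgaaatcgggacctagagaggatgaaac
Slfn2, chr11:83065012-83065111, plus strand: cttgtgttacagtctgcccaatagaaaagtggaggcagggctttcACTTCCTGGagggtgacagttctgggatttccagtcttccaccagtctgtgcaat
Slfn4, chr11:83175086-83175185, plus strand: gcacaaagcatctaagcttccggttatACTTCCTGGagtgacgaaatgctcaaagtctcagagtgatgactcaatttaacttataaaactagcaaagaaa
Slfn3, chr11:83191230-83191329, plus strand: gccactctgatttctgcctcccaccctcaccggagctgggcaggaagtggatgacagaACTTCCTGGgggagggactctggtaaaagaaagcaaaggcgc

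The run ACTTCCTGG began at position -74 in Slfn1, -73 in Slfn4, -55 in Slfn2 and -42 in Slfn3. It is the longest run that the 4 share before the start, and it was looked for after the windows had been read. On either strand, 277 of 32851 promoter windows of the mouse genome held it, or 0.843%. In Slfn1 and Slfn4 the shared run was longer, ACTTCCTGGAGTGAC, which 2 of the 32851 windows held. These 2 were the windows of Slfn1 and Slfn4 themselves, from which the run was taken. Slfn4 also held the AP-1 site TGANTCA at position -34, a motif found in 7.81% of all windows.

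The windows of the 3 genes with long forms did not hold that run and held an interferon-stimulated response element, searched on both strands as GAAA, any 2 bases and GAAA. The next 3 stretches show it in capitals, read on the gene's strand, where in Slfn8 and Slfn9 it appears as the reverse complement.
Slfn8, chr11:83020811-83020910, minus strand: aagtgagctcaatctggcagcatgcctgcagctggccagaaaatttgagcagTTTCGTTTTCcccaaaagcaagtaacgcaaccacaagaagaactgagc
Slfn9, chr11:82991831-82991930, minus strand: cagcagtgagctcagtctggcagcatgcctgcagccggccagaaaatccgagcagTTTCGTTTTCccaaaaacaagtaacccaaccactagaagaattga
Slfn5, chr11:82951902-82952001, plus strand: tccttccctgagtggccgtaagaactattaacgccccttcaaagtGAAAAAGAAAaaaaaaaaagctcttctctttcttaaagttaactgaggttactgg

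The element began at position -48 in Slfn8, -45 in Slfn9 and -155 in Slfn5, and 3.44% of all windows held it. The stretches of Slfn8 and Slfn9 are nearly alike around it, so their matches are not separate finds. That of Slfn5 lies at the edge of a run of A. Slfn5 is listed from 82952102, while its RefSeq span begins at 82951349, so its match lies before the listed start but within the RefSeq span. No window of the 7 members held the gamma-activated site TTCNNNGAA, which 8.30% of all windows held. These are matches of letters and not tests of binding, and no match says only that the letters are not in that window.

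Values are TPM as the authors deposited them, a unit scaled by gene length and by library total. Each was found to be a whole number of reads divided by the listed gene length, which is the span on the genome with introns. All 164129 values that could be checked, between 18093 and 18372 a library, came out within 0.15 of whole reads. This gave 10213780 to 13868671 reads a library over the listed genes. The members' own read numbers ran between 15 (Slfn4) and 1029 (Slfn5) a library. For the comparison by limma on log2(TPM + 1), 15704 genes that reached 1 TPM in 4 or more libraries were kept, and a gene is called at a Benjamini-Hochberg adjusted p under 0.05 over all of them. All 7 members passed that filter. Of them 6 had at least 1 TPM in every library, and Slfn4 passed with lower values in 2 libraries of the bacterium alone.

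Among the 6 members other than Slfn1, 5 were called higher and none lower, and Slfn9 was not called, where over all tested genes 7.16% were called higher with anti-CTLA-4 and 4.48% lower. The groups did not overlap for 6 of the 7 members, Slfn1 included, and anti-CTLA-4 lay above the other group without overlap for 8.02% of all tested genes. Because Slfn1 drew attention to the family in this same comparison, nothing is read from these counts. The median log2 change of the 6 was 1.07, against -0.014 over all tested genes. In whole skin, more cells that express a gene and more RNA per cell cannot be told apart, which holds for every change given here.

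**Figure D1:**
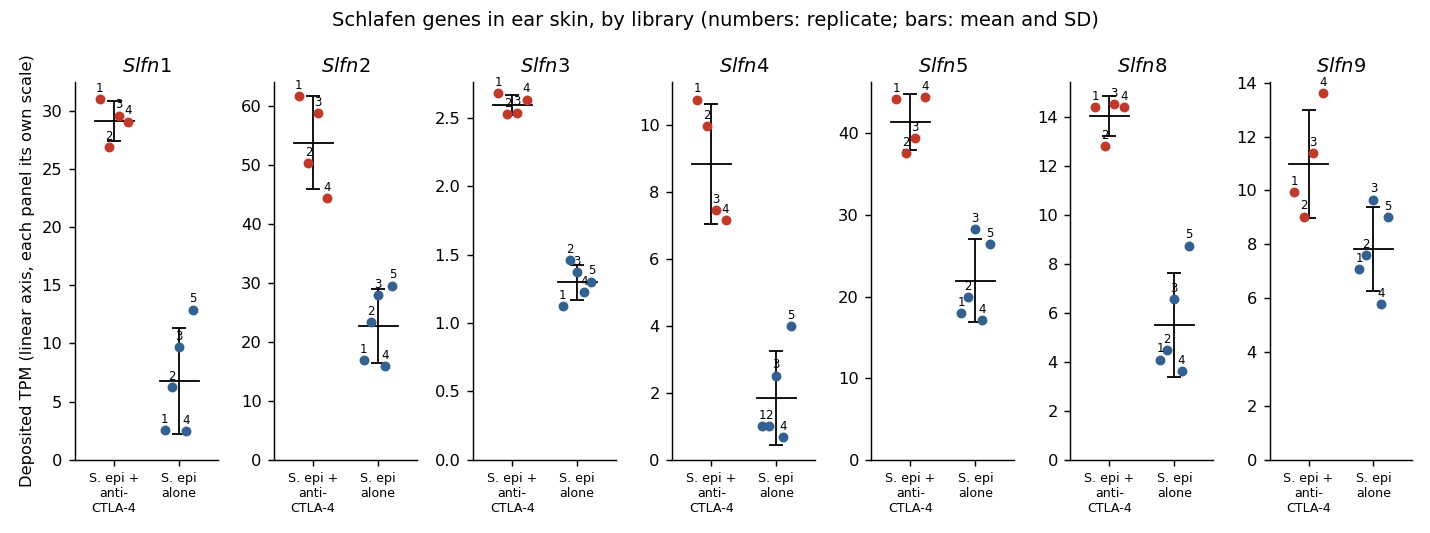
Deposited TPM of the 7 Schlafen genes in each library, on a linear axis from 0 with its own scale in each panel. Points are libraries with their replicate numbers, and bars give the mean and SD of the 4 anti-CTLA-4 libraries (left, red) and the 5 libraries of the bacterium alone (right, blue). Only in the Slfn9 panel do the groups overlap, and replicates 3 and 5 of the bacterium alone lie above replicates 1 and 4 in every panel.

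Slfn1, a short form (mm10 chromosome 11, 83116820 to 83122670, plus strand), had 31.0, 26.9, 29.6 and 29.1 TPM in anti-CTLA-4 replicates 1 to 4, against 2.56, 6.25, 9.68, 2.44 and 12.9 TPM in replicates 1 to 5 of the bacterium alone. The anti-CTLA-4 libraries lay close together and above all others, while those of the bacterium alone spread by 5.30-fold from lowest to highest. Slfn1 averaged 29.2 ± 1.71 TPM with anti-CTLA-4 and 6.77 ± 4.55 TPM with the bacterium alone (SD, n = 4 and n = 5), a ratio of 4.31. The log2 change was 2.18 ± 0.40 (SE), the 23rd largest increase among the 15704 tested genes.

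Slfn2, the other short form (chromosome 11, 83065112 to 83070678, plus strand), rose. It had 61.7, 50.3, 58.9 and 44.3 TPM with anti-CTLA-4, against 16.9, 23.4, 27.9, 15.9 and 29.5 TPM with the bacterium alone. The lowest anti-CTLA-4 library was above the highest of the others. Slfn2 averaged 53.8 ± 7.94 TPM with anti-CTLA-4 and 22.7 ± 6.23 TPM with the bacterium alone (SD, n = 4 and n = 5). Its log2 change was 1.24 ± 0.19 (SE; limma adjusted p = 0.00538).

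Slfn4, the myeloid gene with an intermediate form (chromosome 11, 83175186 to 83190216, plus strand), rose as well. Its values were 10.8, 9.97, 7.46 and 7.15 TPM with anti-CTLA-4, against 0.997, 1.005, 2.51, 0.678 and 3.99 TPM with the bacterium alone. Its groups did not overlap, and the libraries of the bacterium alone spread by 5.89-fold, as widely as those of Slfn1. Means of 8.84 ± 1.80 TPM with anti-CTLA-4 and 1.84 ± 1.40 TPM with the bacterium alone (SD, n = 4 and n = 5) gave a ratio of 4.81 and a log2 change of 1.90 ± 0.31 (SE; limma adjusted p = 0.00602).

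Slfn3, which starts 1113 bases beyond the end of Slfn4 on the same strand, rose in tight groups. Its values were 2.68, 2.53, 2.54 and 2.64 TPM with anti-CTLA-4, against 1.12, 1.46, 1.37, 1.23 and 1.30 TPM with the bacterium alone. Its libraries spread by 1.06-fold with anti-CTLA-4 and by 1.30-fold with the bacterium alone, and the groups did not overlap. These values rest on 87 to 114 reads a library with anti-CTLA-4 and 41 to 60 with the bacterium alone. At such read numbers counting alone spreads libraries, so the tightness may not be a trait of the gene. The log2 change of 0.65 ± 0.071 (SE; limma adjusted p = 0.00217) was the smallest of the 5 called members, although its means of 2.60 ± 0.0752 TPM with anti-CTLA-4 and 1.30 ± 0.131 TPM with the bacterium alone (SD, n = 4 and n = 5) differed by a ratio of 2.00. The pseudocount of 1 TPM weighs more on a gene with a low TPM, and Slfn3 is listed with 23824 bases while its longest GENCODE transcript has 2834.

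Slfn5, a long form that type I interferon induces (chromosome 11, 82952102 to 82964850, plus strand), rose. It had 44.2, 37.6, 39.4 and 44.5 TPM with anti-CTLA-4, against 17.9, 20.0, 28.3, 17.2 and 26.5 TPM with the bacterium alone. The groups did not overlap. Its log2 change was 0.91 ± 0.15 (SE), with means of 41.4 ± 3.44 TPM with anti-CTLA-4 and 21.96 ± 5.09 TPM with the bacterium alone (SD, n = 4 and n = 5; limma adjusted p = 0.00621). Slfn5os, a non-coding gene on the opposite strand, overlaps Slfn5 by 8580 bases and had 13.3 ± 1.05 TPM with anti-CTLA-4 and 7.38 ± 1.59 TPM with the bacterium alone (SD, n = 4 and n = 5; log2 change 0.79, limma adjusted p = 0.00637). The sources used here do not say whether reads were counted by strand, so reads of the 2 genes may not be separated.

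Slfn8, also a long form (chromosome 11, 83002158 to 83020810, minus strand), rose. Its values were 14.4, 12.8, 14.5 and 14.4 TPM with anti-CTLA-4, against 4.09, 4.48, 6.54, 3.60 and 8.74 TPM with the bacterium alone. The groups lay apart, at 14.0 ± 0.812 TPM with anti-CTLA-4 and 5.49 ± 2.13 TPM with the bacterium alone (SD, n = 4 and n = 5), and the log2 change was 1.27 ± 0.20 (SE; limma adjusted p = 0.00578).

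Slfn9, the long form next to Slfn8 on the same strand (chromosome 11, 82980303 to 82991830), was the member that was not called. It had 9.95, 9.03, 11.4 and 13.6 TPM with anti-CTLA-4, against 7.07, 7.61, 9.66, 5.77 and 9.0 TPM with the bacterium alone. Anti-CTLA-4 replicate 2 lay below replicate 3 of the bacterium alone. It averaged 10.99 ± 2.00 TPM with anti-CTLA-4 and 7.82 ± 1.55 TPM with the bacterium alone (SD, n = 4 and n = 5), the log2 change was 0.45 ± 0.15 (SE) and the limma adjusted p was 0.0891. An exact two-sided permutation test of Slfn9 alone gave p = 0.0317, unadjusted. The 5 called members each gave 0.0159, the smallest p that 4 libraries against 5 allow. Fitted as recovered reads with limma voom, Slfn9 passed (log2 change 0.56 ± 0.17, SE; limma adjusted p = 0.0322), in a fit that called 12.3% of genes higher.

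**Figure D2:**
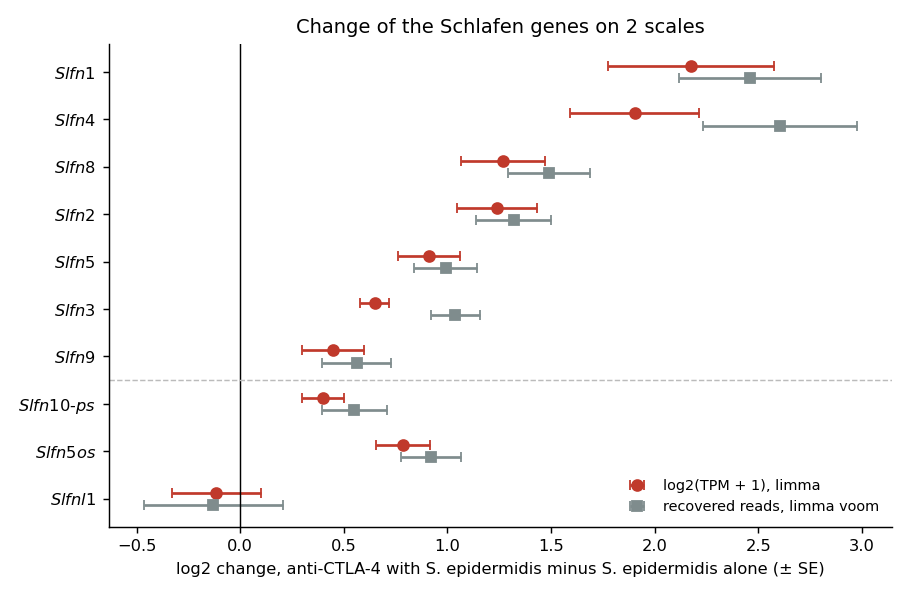
Log2 change of each Schlafen gene (anti-CTLA-4 with the bacterium minus the bacterium alone), with SE, on log2(TPM + 1) by limma (red circles) and on recovered reads by limma voom (grey squares). The 7 members stand above the dashed line and 3 other genes named Slfn below it. Slfn4 and Slfn3 move furthest between the scales, and Slfnl1 lies at 0 within its SE on both.

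On recovered reads, which carry no pseudocount of 1 TPM, the changes of Slfn4 and Slfn3 were larger. Slfn4 had a log2 change of 2.60 ± 0.37 (SE) and stood above Slfn1 at 2.46 ± 0.34, which is given with no test. Slfn3 had 1.04 ± 0.12 and stood beside Slfn5 at 0.99 ± 0.15. Slfn8 had 1.49 ± 0.20 and Slfn2 1.32 ± 0.18. The order of Slfn1 and Slfn4, and of Slfn3 and Slfn5, thus turned with the scale.

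Pairs of members were set against each other to ask whether they changed by different amounts. For each of the 15 pairs among the 6 members other than Slfn1, the difference in log2(TPM + 1) within a library was compared between the groups by an exact two-sided permutation test, with p adjusted over the 15 pairs. It passed for 6 pairs, each at an exact adjusted p of 0.0397. The log2 change of Slfn4 exceeded that of Slfn8 by 0.64 and that of Slfn9 by 1.46. The log2 changes of Slfn8 and Slfn5 exceeded that of Slfn9 by 0.82 and 0.46. These 4 pairs also passed with a pseudocount of 0.1 and on recovered reads (exact adjusted p = 0.0476 on both). Slfn4 then exceeded Slfn8 by 1.06 at a pseudocount of 0.1 and by 1.14 on recovered reads, and Slfn9 by 1.98 and 2.07. The pairs Slfn2 with Slfn9 and Slfn3 with Slfn4 passed at a pseudocount of 1 only (exact adjusted p = 0.0595 and 0.0649 on recovered reads), and Slfn4 with Slfn5 at the other 2 settings only (exact adjusted p = 0.0529 at a pseudocount of 1). Without replicate 5 of the bacterium alone 11 pairs passed, and without any other single library 0 passed, where the smallest exact p is 0.0286 or 0.0357 before adjustment and many pairs must reach it for any to pass. Slfn2 and Slfn8 differed in change by -0.028 (exact adjusted p = 0.857). With Slfn1 on top, the differences ranged from 0.27 over Slfn4 to 1.73 over Slfn9, given as values with no test.

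Levels of different genes were compared as reads per kb of the longest GENCODE transcript per 1000000 reads, ribosomal RNA entries left out, because the deposited TPM divides by the genomic span. With anti-CTLA-4 the order was Slfn2 (25.2 ± 3.82), Slfn1 (12.8 ± 0.985), Slfn5 (12.4 ± 1.36), Slfn8 (9.14 ± 0.575), Slfn4 (4.73 ± 1.12), Slfn9 (3.08 ± 0.546) and Slfn3 (3.06 ± 0.202; SD, n = 4). With the bacterium alone it was Slfn2 (10.4 ± 3.14), Slfn5 (6.39 ± 1.66), Slfn8 (3.5 ± 1.47), Slfn1 (2.93 ± 2.04), Slfn9 (2.13 ± 0.487), Slfn3 (1.48 ± 0.167) and Slfn4 (0.964 ± 0.759; SD, n = 5). Slfn2, needed for T cell rest, was highest in both. With anti-CTLA-4 the ranges of Slfn1 and Slfn5, of Slfn4 and Slfn9 and of Slfn9 and Slfn3 overlapped. With the bacterium alone the ranges of all 6 neighbouring pairs overlapped. Which transcript is used in skin was not tested. The sources used here do not say whether reads in introns were counted. If they were, these levels cannot be compared between genes. The listed span of Slfn9 stops at 82980303, while its RefSeq span reaches 82974316, so the level of Slfn9 may be understated.

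**Figure D3:**
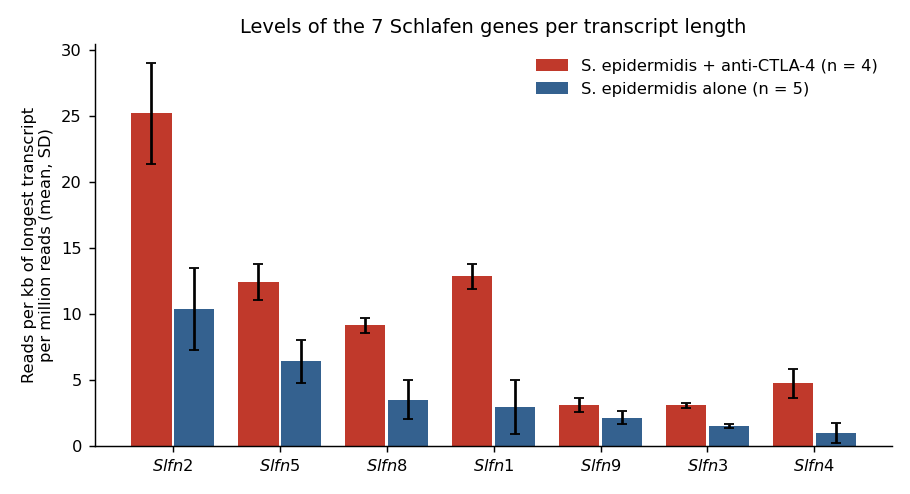
Reads per kb of longest transcript per 1000000 reads for the 7 members, as mean bars from 0 with SD, for 4 anti-CTLA-4 libraries (red, left bar) and 5 of the bacterium alone (blue, right bar). Genes run from the highest to the lowest level with the bacterium alone, and Slfn1 and Slfn4 stand higher in the order of the red bars than in that of the blue bars.

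The order of the libraries with the bacterium alone was alike for most members, which was not so with anti-CTLA-4. With the bacterium alone, Slfn1, Slfn2, Slfn4 and Slfn8 had the same order of libraries, with replicate 5 highest, then 3, 2, 1 and 4. Slfn5 and Slfn9 had the same order with replicates 3 and 5 exchanged. Slfn3, with 41 to 60 reads a library in that group, was highest in replicate 2 and lowest in replicate 1. Among the anti-CTLA-4 libraries no 2 members had the same order. Each member spread by at most 1.51-fold there and Slfn8 had equal TPM in replicates 1 and 4, so small differences set these orders.

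Gene sets of several cell types and of the interferon response moved with the members. The lists were written from general knowledge with earlier results of these data known. A gene could pass the filter through the 4 anti-CTLA-4 libraries alone, as Stfa2l1 (neutrophils) and Cd6 (T cells) did. Their means with the bacterium alone were 0.199 and 0.456 TPM. For such a gene only a rise could be called, and both count among the genes called higher. Of 32 type I interferon response genes, all tested, 23 were called higher and none lower, with a median log2 change of 0.91. Over all tested genes, to be set beside this and the following lists, 7.16% were called higher and 4.48% lower, with a median of -0.014. Bst2, which tethers viruses to the cell, had 18.9 ± 1.596 TPM with anti-CTLA-4 and 9.43 ± 1.94 TPM with the bacterium alone (SD, n = 4 and n = 5; log2 change 0.94, limma adjusted p = 0.00346). Oasl1, Ifit1bl1 and Oas3 rose by 1.05, 1.52 and 1.09 on the log2 scale. The summed TPM of the list was 454 to 527 with anti-CTLA-4 and 195, 233, 327, 200.03 and 358 in replicates 1 to 5 of the bacterium alone, so that replicates 5 and 3 were also the highest here. Of 7 genes for interferon receptors and their kinases, 4 were called higher (Ifnar2, Jak2, Ifngr1 and Ifnar1, by 0.62, 0.34, 0.44 and 0.33), 3 were not called, and the median log2 change was 0.33.

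All 12 pan-leukocyte genes were called higher, with a median log2 change of 1.05 and a summed TPM of 407 to 527 with anti-CTLA-4 and 171 to 231 with the bacterium alone. Among T cell genes 13 of 15 were called higher (median 1.03; sums of 207 to 259 TPM with anti-CTLA-4 and 120 to 153 TPM with the bacterium alone), and among monocyte and macrophage genes 14 of 17 (median 0.93; sums of 1429 to 1941 TPM with anti-CTLA-4 and 958 to 1221 TPM with the bacterium alone). An example is the integrin Itgam of myeloid cells (log2 change 1.36). Of 17 neutrophil genes 11 passed the filter and 7 were called higher (median 1.15), and their sums of 1550.0 to 4490.8 TPM with anti-CTLA-4 stood against 133, 482, 1359, 134 and 1503 TPM in replicates 1 to 5 of the bacterium alone. Replicates 5 and 3 held the highest neutrophil sums of that group. The pan-leukocyte, T cell and monocyte and macrophage sums were highest in replicate 3 and next in replicate 2, at 222, 146 and 1164 TPM. Replicate 5 had 215, 141 and 1062 TPM, above replicate 1 (183, 131 and 958 TPM) and replicate 4 (171, 120 and 1060 TPM). The neutrophil sums were carried by other genes than Csf3r, Clec4d, Fpr2 and Stfa2l1, which averaged 9.12, 5.75, 2.14 and 1.66 TPM with anti-CTLA-4. Which genes carried them was not examined, so these sums need not follow neutrophil numbers. No gene of these lists was called lower or was listed at 0 in all libraries. The part of these cells and of interferon in the change of the members was not tested.

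Set against the summed pan-leukocyte TPM of the same library, the members differed. Slfn1 was 5.45% to 7.32% of that sum with anti-CTLA-4 and 1.40% to 6.00% with the bacterium alone, with a ratio of the mean shares of 2.02. Slfn4 was 1.42% to 2.54% with anti-CTLA-4 and 0.396% to 1.85% with the bacterium alone, with a ratio of 2.23. Slfn2, Slfn8, Slfn3 and Slfn5 had ratios of 1.07, 1.16, 0.892 and 0.853. The groups overlapped for these members and also for Slfn1 and Slfn4. Slfn9 was 1.83% to 3.34% of the sum with anti-CTLA-4 and 3.37% to 4.19% with the bacterium alone, so that its groups did not overlap and anti-CTLA-4 was the lower. The sum itself was 407 to 527 TPM with anti-CTLA-4 and 171 to 231 TPM with the bacterium alone. A gene that rose by less than the sum thus has a lower share, and the median log2 change over all tested genes was -0.014. How many of all genes had a lower share without overlap was not counted, so that of Slfn9 need not be a trait of the gene. These are values with no test.

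**Figure D4:**
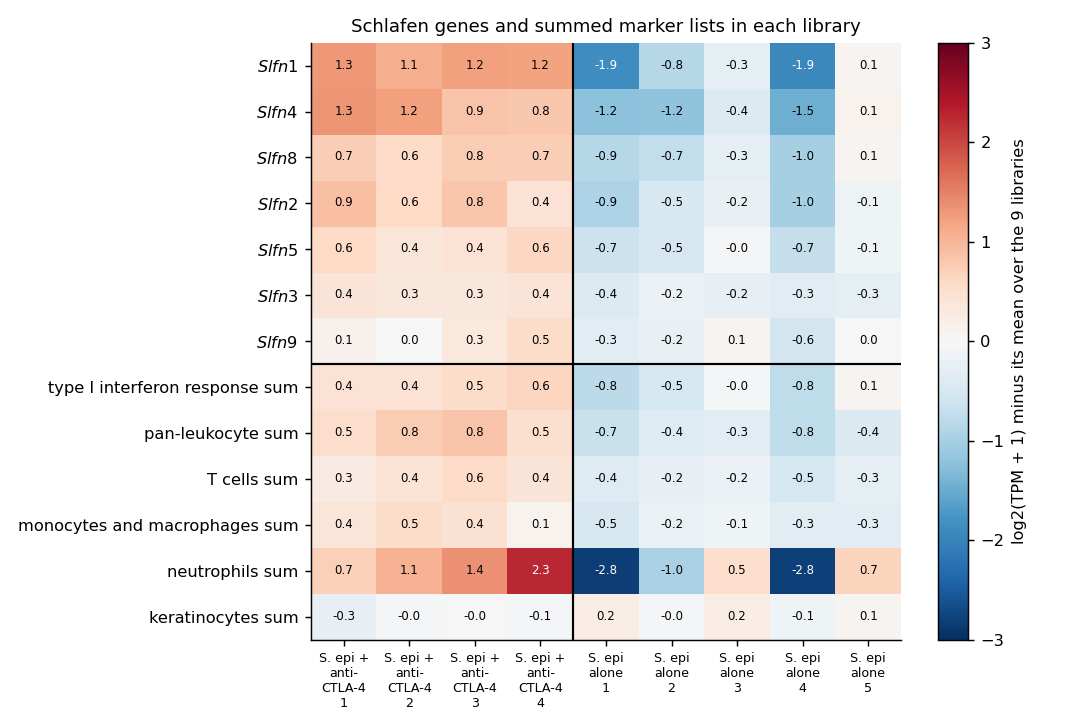
Log2(TPM + 1) minus its mean over the 9 libraries for the 7 members and for the summed TPM of 6 gene lists, with the value printed in each cell. Columns are the 4 anti-CTLA-4 libraries (left of the line) and the 5 of the bacterium alone (right). Replicates 3 and 5 of the bacterium alone lie above 1 and 4 for each member and for every sum except that of keratinocytes. For monocytes and macrophages replicate 5 is barely above replicate 4 (1062 against 1060 TPM). A sum weighs the most abundant genes of its list most.

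Among other lists, T cell quiescence factors did not move as 1 list. Of 10, Vsir, an inhibitory receptor, was called higher (log2 change 0.59), Tob1, an antiproliferative factor, was called lower (-0.47), and 8 were not called (median -0.11). Of 12 genes of Toll-like receptor and NF-kappaB signalling 4 were called higher (Irak4, Tlr4, Tlr2 and Relb, by 0.41, 0.42, 0.47 and 0.29; median 0.22). Of 6 keratinocyte genes only Krt1 was called (higher by 0.96), and none of 6 fibroblast or 6 skeletal muscle genes was. Of 5 B cell genes Cd79b alone passed the filter, with means of 1.93 TPM with anti-CTLA-4 and 0.80 TPM with the bacterium alone. It passed only through the anti-CTLA-4 libraries, so the filter had set the direction of its call (higher by 0.70). Of 5 tested genes of platelets and red cells Itga2b and Pf4 were called higher (0.46 and 0.87). The keratinocyte sum was 18917 to 22202 TPM with anti-CTLA-4 and 20795 to 26475 TPM with the bacterium alone, so the epidermal markers of skin were present in all 9 libraries.

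The genes whose course over the 9 libraries lay nearest to that of each member were found by the mean absolute difference of log2(TPM + 1), each gene centred on its own mean, among 13891 named genes. This measure uses the group difference too and says nothing of function. Its pseudocount of 1 TPM shrinks the changes of genes with a low TPM, such as Slfn3. Their nearest genes could differ on another scale, which was not tested. Among the nearest to Slfn1 were Gzmb (0.17), Plac8 (0.20), Il1b (0.20) and Ccr1 (0.21), which are genes of a granzyme, a small cysteine-rich protein, interleukin-1 beta and a chemokine receptor. Among the nearest to Slfn4 were Fcgr1 (0.18) and Ifi209 (0.21). Nearest to Slfn8 were Ifi204, Il21r and Icos (0.081 to 0.12), to Slfn2 Mefv, Ms4a8a and Gmfg (0.085 to 0.11), to Slfn5 Bst1, Slfn5os and Slc15a3 (0.059 to 0.072), and to Slfn3 Arpc1b, Efhd2 and Ets1 (0.038 to 0.060). Nearest to Slfn9 were Ccna2, Mki67 and Tubb5 (0.042 to 0.057), of which the first 2 are markers of dividing cells. Among the members themselves the nearest pair was Slfn2 with Slfn8 (0.13) and the farthest Slfn1 with Slfn9 (0.87).

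On chromosome 11 the 10 genes named Slfn span 344.4 kb, from Slfn5os to Slfn14. Within 500 kb of either end or between the ends, 20 other protein-coding genes were tested, of which 5 were called higher and none lower (median log2 change 0.020). Over all tested genes 7.16% were called higher and 4.48% lower. Unc45b, which overlaps the cluster's first end, Nle1 and Ap2b1, close to the cluster by position and named after their values were seen, had log2 changes of -0.11, -0.12 and 0.068 and limma adjusted p-values between 0.456 and 0.605. The 5 called genes lay between 286 and 417 kb beyond the last Schlafen gene. They were the chemokine genes Ccl9, Ccl6, Ccl3 and Ccl4 and the gene Wfdc17, with log2 changes between 1.24 and 2.39.

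**Figure D5:**
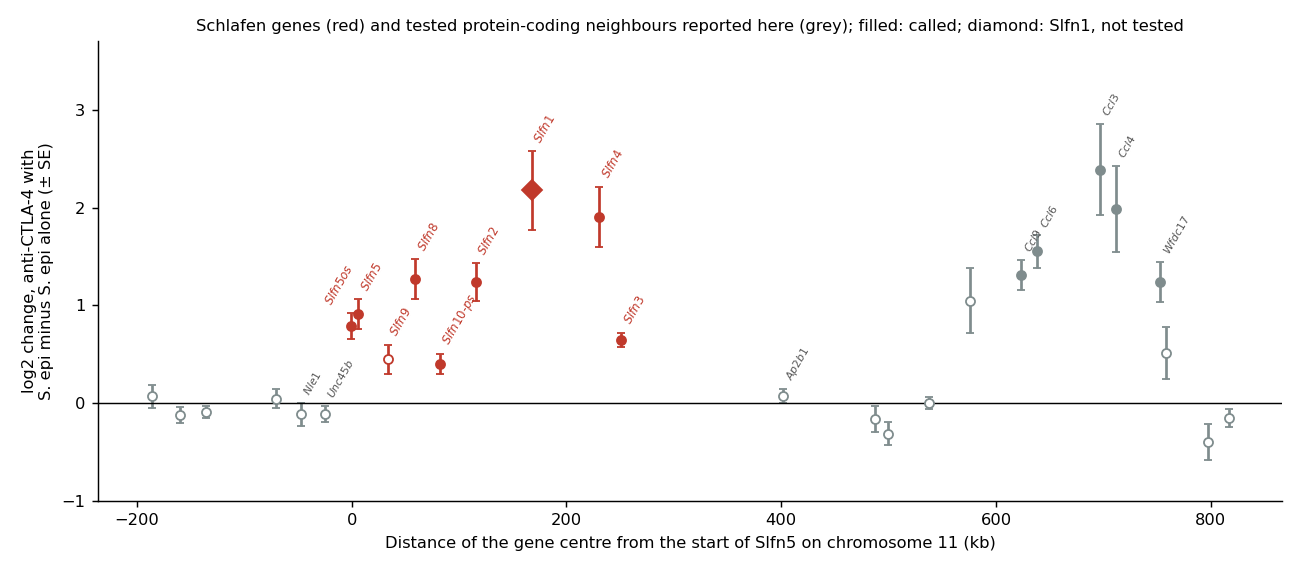
Log2 change with SE against the distance of a gene's centre from the start of Slfn5 on chromosome 11, in kb. Red points are Schlafen genes and grey points the tested protein-coding neighbours reported here, filled where called, with a diamond for Slfn1, which was not tested. Grey points within 200 kb of the first and last Schlafen genes lie between -0.31 and 0.068, and the filled grey points further right belong to chemokine genes and Wfdc17.

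Reads of near-identical relatives can be split between genes, and the sources used here do not say how the authors assigned them. Of the windows of 75 bases, the number of sequencing cycles, in a member's longest GENCODE transcript, transcripts of other genes held none for Slfn1, 1.70% for Slfn2, 3.24% for Slfn4 and 6.06% for Slfn9. They held 7.52% for Slfn8, 8.37% for Slfn3 and 8.81% for Slfn5. The partner with the largest share was Slfn10-ps for Slfn8 and Slfn9 (5.36% and 4.69%), which also share windows with each other, Slfn5os for Slfn5 (7.06%) and the gene Gm11427 for Slfn3 and Slfn4 (4.601% and 1.39%). Slfn4 also shares windows with Slfn3 and Slfn2, and all those of Slfn2 were shared with Slfn4. No 2 members had an equal TPM in any library over the 21 pairs. Slfn8 had the same TPM in anti-CTLA-4 replicates 1 and 4, from 365 and 487 reads.

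Other genes named Slfn were few. Slfn10-ps, between Slfn8 and Slfn2, had 4.57 ± 0.5004 TPM with anti-CTLA-4 and 3.23 ± 0.493 TPM with the bacterium alone (SD, n = 4 and n = 5) and was called higher (log2 change 0.40, limma adjusted p = 0.0356). Slfnl1, on chromosome 4, had 1.61 ± 1.04 TPM with anti-CTLA-4 and 1.69 ± 0.208 TPM with the bacterium alone (SD, n = 4 and n = 5) and was not called (log2 change -0.12, limma adjusted p = 0.782). Slfn14 was below the filter, with 3 reads over the 4 anti-CTLA-4 libraries and 4 reads over the 5 of the bacterium alone.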

How the data were processed

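Whole ear skin RNA was sequenced in 9 libraries, grouped by their titles into 4 with anti-CTLA-4 and the bacterium and 5 with the bacterium alone. The authors deposited TPM per gene and library, and STAR, HOMER and DESeq2 with mm10 are named in the submitters' processing notes, with no version or role. TPM times the listed length gave whole reads (within 0.15, tested up to 5000 reads where rounding is under 0.1 reads), so the depth is known and the lengths are genomic spans.

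Using limma 3.58.1 (R 4.3.3), the groups were compared on log2(TPM + 1) over genes that reached 1 TPM in 4 or more libraries (empirical Bayes, mean trend, no covariate), tested on simulated data. Fold changes on that scale understate the change of low genes. Exact permutation tests (scipy 1.17.1) were run on the 6 members other than Slfn1; they were also meant for members below the filter, of which there were 0. Named genes were the 7 members, the other Slfn genes, up to 4 genes of smallest p in each list, the nearest genes by course (5 for Slfn1, 3 for each other member, passing over microRNA, small nucleolar and unnamed genes) and neighbours within 500 kb; some of these genes are not reported here. Members and lists were chosen with earlier results of these data known. The limma voom fit and the ratios on recovered reads were added after seeing the data. Replicate numbers are shared by the groups, but nothing in the labels pairs them.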

Additional observations from a re-analysis of the deposited data

Results flagged for a closer look

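Slfn8 in anti-CTLA-4 replicate 2, at 12.8 TPM, lay apart from the other 3 anti-CTLA-4 libraries, which had 14.4, 14.5 and 14.4 TPM. It was the lowest of its group by a gap that exceeded the 95% critical value of Dixon's test, and it was still above all libraries of the bacterium alone. Of 14 groups of values searched, 1 was found this way, where chance gives about 1 in 20.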

How the results depend on the processing

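The calls of Slfn2, Slfn3, Slfn4, Slfn5 and Slfn8 held under all 19 alternatives, the highest limma adjusted p-values being 0.0184, 0.0276, 0.0212, 0.0326 and 0.0190, and Slfn9 passed under limma voom on recovered reads only. The log2 change of Slfn1 lay between 1.94 and 2.46. Over all genes, 1124 were called higher and 704 lower. Quantile normalization called 1429 lower, a common median 1313, and limma voom on recovered reads 1936 higher and 1091 lower. Quantile normalization and a common median thus moved the split to 1314 higher and 1429 lower, and 1302 and 1313. With the replicate number as a block 593 were higher and 88 lower, while the 5 members remained called. Same-numbered libraries did not deviate together (correlations of -0.0086, 0.018, -0.091 and -0.093), and 0 of 4 anti-CTLA-4 libraries correlated best with their own number. Leaving out 1 library gave 706 to 1094 higher and 337 to 703 lower. More than 1.5-fold fewer were lower without anti-CTLA-4 replicate 1, 2 or 4 or replicate 1, 2 or 4 of the bacterium alone, and fewer higher without anti-CTLA-4 replicate 3. The pair ratios passed for 6 of 15 pairs, and for 0 to 11 when 1 library was left out, 11 without replicate 5 of the bacterium alone and 0 without any other. The causes of these shifts were not tested. Between 15 and 26 reads of Slfn4 lay behind its lowest 3 libraries.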
